A study of Pongo abelii with 8 samples.

Results

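The genes described here are the HOX genes and the T-box, MEIS, PBX, PITX and SHOX transcription factor genes that the array measured, picked out by a rule on the gene symbol. Of 22277 probe sets on the array, 61 carry exactly 1 such symbol, and they stand for 40 of the 11963 genes with a symbol: 24 HOX genes, 9 T-box genes, 2 MEIS genes, 2 PBX genes, 2 PITX genes and SHOX2. RNA came from 8 cultures of 2 Sumatran orangutans, KB10460 (female, 43 years) and KB10973 (male, 29 years), both recorded as healthy controls. Each animal gave 1 dermal fibroblast culture, grown in DMEM with serum, and 3 iPSC colonies made from those fibroblasts with retroviruses for human OCT4, SOX2, KLF4 and c-MYC, grown in DMEM:F12 with serum replacement. By the study's methods the skin came from punch biopsies of the upper limbs, and the colonies were raised on inactivated mouse embryonic fibroblasts. The cell types therefore also differ in medium and in the mouse cells under the colonies. Colonies of 1 animal share their donor, and the p-values below speak only of the spread between these 8 cultures.

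HOX genes encode homeodomain proteins that specify position along the body axis and, for the higher numbers, along the limb. They lie in 4 clusters, and their numbers follow their order in a cluster. MEIS and PBX proteins are TALE-class homeodomain partners that bind DNA together with HOX proteins. T-box proteins are a second DNA-binding family: TBX5 marks the forelimb bud, TBX4 and the homeobox gene PITX1 mark the hindlimb bud, and TBX2 and TBX3 act at the limb margins. SHOX2 encodes a homeobox protein needed for growth of the upper segment of the limb. Adult skin fibroblasts are known to keep HOX expression that depends on their body site, while pluripotent cells hold most HOX clusters silent under Polycomb marks.

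The labelled cell types were checked with marker genes. Of 10 fibroblast markers, 9 were lower and 1 was higher in the iPSCs, and their mean log2 value was 9.28 and 9.56 on the fibroblast arrays against 5.28 to 5.76 on the iPSC arrays. The exception was THY1, a surface protein often used to sort fibroblasts, at 3.71 and 4.35 in the fibroblasts and 6.62 to 7.21 in the iPSCs. The 4 measured pluripotency markers (SOX2, NANOG, LIN28A and DNMT3B) were all higher in the iPSCs. Of 18 measured markers of keratinocytes, endothelium, melanocytes, smooth muscle and leukocytes, 5 were called, 2 lower and 3 higher. These counts are close to the shares over all genes, of which 11.5% were called lower and 15.2% higher. The endothelial gene PECAM1 (8.10 and 6.65 in the KB10460 and KB10973 fibroblasts) and the monocyte gene CD14 (7.99 and 5.42) were lower in the iPSCs, while TEK, also endothelial, the melanocyte gene PMEL and the smooth muscle gene CNN1 were higher. The defining endothelial genes VWF (mean log2 value 3.95) and CDH5 (3.10) and the leukocyte gene PTPRC (3.30) were low in the fibroblasts and not called. The defining keratinocyte genes KRT5 and KRT14 stayed at 3.51 or below on every array. The part of such markers in the results below was not tested.

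A small set of these genes carried the difference between the cell types. In a limma fit across all probe sets, a gene was called where its fold change exceeded 1.5 and its p, adjusted by the Benjamini-Hochberg method, was below 0.05. By this rule 9 of the 40 genes fell in the iPSCs, 2 rose and the other 29 were not called. Lower calls made up 22.5% of these genes against 11.5% of all 11963 genes, and higher calls 5% against 15.2%. The genes called lower were HOXC6, TBX3, SHOX2, MEIS1, MEIS2, HOXC4, HOXB2, HOXC8 and HOXC10, and those called higher were PBX2 and PBX3. On none of these 11 genes did the 6 iPSC arrays overlap with the 2 fibroblast arrays. The genes were called on these same arrays, so this is no separate support. How often it held over all genes was not counted. The median log2 change of the 40 genes was -0.18, beside -0.0039 for all genes. In such cultures, fewer cells with a transcript and less of it per cell cannot be told apart.

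**Figure D1:**
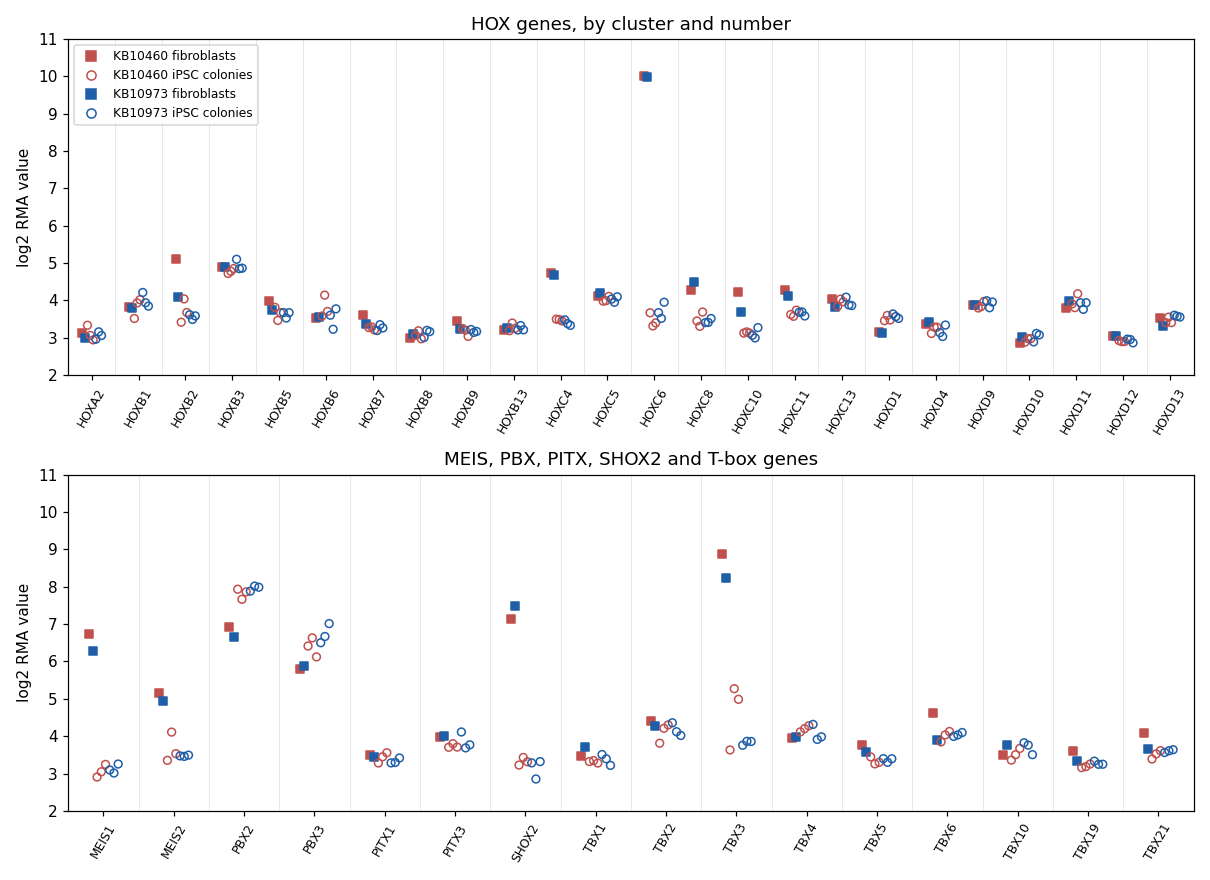
Log2 RMA value (vertical axis) of each of the 40 genes at the probe set of highest mean value (horizontal axis), with HOX genes in the upper panel and the others in the lower one. Filled squares are fibroblast cultures and open circles iPSC colonies, coloured by donor. The squares stand far above the circles for HOXC6, MEIS1, SHOX2 and TBX3, the circles stand above the squares for PBX2 and PBX3, and most other genes lie between 3 and 5 on all arrays.

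The HOXC cluster held most of the HOX change. Of its 7 measured genes, 4 were lower in the iPSCs, against 1 of 9 in the HOXB cluster, none of 7 in the HOXD cluster and not the 1 measured HOXA gene, HOXA2. The difference between clusters was not tested. HOXC6, which acts in the thoracic and forelimb region of the embryo, had log2 values of 10.00 in the KB10460 fibroblasts and 9.97 in the KB10973 fibroblasts. On the iPSC arrays HOXC6 ran from 3.32 to 3.95 with a median of 3.59. The fibroblast cultures thus had nearly the same value, and every colony lay far below them. This is a log2 change of -6.40 (standard error 0.15, 84.6-fold, limma, adjusted p = 6.2e-09), the largest measured among the 40 genes. Where the lower value lies near or below the median of its array, as it does for HOXC6, MEIS1, SHOX2 and most others called lower, it was not shown to be above background, and the fold is then that of the measured values and may understate the change. The only HOXC6 probe set has an identifier ending that marks probes matching more than 1 transcript, so its signal may not be that of a single HOXC6 transcript.

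The neighbours of HOXC6 moved unequally. HOXC4 was at 4.74 and 4.67 in the fibroblasts of KB10460 and KB10973, and at 3.33 to 3.50 (median 3.46) in the colonies, a change of -1.27 on the log2 scale (standard error 0.08, limma, adjusted p = 2.7e-06). HOXC8 was at 4.26 and 4.49 in the same cultures and at 3.30 to 3.69 (median 3.43) in the colonies, a change of -0.91 (standard error 0.11, limma, adjusted p = 0.00021). Both groups of arrays were clearly apart for these 2 genes and close together within each cell type. HOXC5, which lies between HOXC4 and HOXC6, was at 4.11 and 4.20 against 3.95 to 4.11 and was not called (change -0.13, 95% interval -0.30 to 0.04). HOXC10, a gene of the posterior trunk and hindlimb in the embryo, was at 4.24 in the KB10460 fibroblasts, 3.68 in the KB10973 fibroblasts and 2.99 to 3.27 (median 3.12) in the colonies. Its change of -0.83 (standard error 0.14, limma, adjusted p = 0.0014) therefore came with fibroblast values that differed by more than the colonies did. A fit without 1 fibroblast array takes its spread from the colonies and assumes that the remaining fibroblast array varies like them, here and below. Without the KB10460 fibroblast array the HOXC10 change was -0.56 and the call ended on the fold threshold (adjusted p = 0.0082). HOXC11 was at 4.29 and 4.11 against 3.57 to 3.74, also with no overlap, and its change of -0.55 (limma, adjusted p = 0.00078) stopped short of the fold threshold. HOXC13 was at 4.04 and 3.81 against 3.84 to 4.09, a change of 0.02 (95% interval -0.20 to 0.24).

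In the HOXB cluster, HOXB2, a gene of the hindbrain region, was at 5.10 in the KB10460 fibroblasts and 4.08 in the KB10973 fibroblasts. The colonies ran from 3.42 to 4.04 with a median of 3.60, so that the highest colony, KB10460 colony 2, lay just under the KB10973 fibroblasts. The change was -0.95 (standard error 0.25, limma, adjusted p = 0.016), and it rested on the KB10460 fibroblasts: without that array it was -0.45 (adjusted p = 0.18), and without the KB10973 fibroblasts -1.46 (adjusted p = 0.00076). The KB10460 fibroblast array, on which HOXB2 and HOXC10 were higher, was also the one with the higher PECAM1 and CD14 values above. TEK (3.38 and 2.70 in the KB10460 and KB10973 fibroblasts) and the leukocyte gene CD3D (3.58 and 3.35) were also higher on it. The smooth muscle gene CNN1 (5.93 and 4.95) and the fibroblast gene PDGFRB (7.79 and 6.67) were higher there too. Other markers were lower on the KB10460 array. Among them were the fibroblast genes COL1A1 (7.21 and 8.81), COL3A1 (10.63 and 11.88) and THY1 (3.71 and 4.35), and the smooth muscle gene DES (3.28 and 3.58). VWF, CDH5 and PTPRC differed by at most 0.1 between the fibroblast arrays. The part of these markers in the HOXB2 and HOXC10 values was not tested. The other 8 HOXB genes, HOXB1, HOXB3, HOXB5, HOXB6, HOXB7, HOXB8, HOXB9 and HOXB13, had changes between -0.23 and 0.12, none called, and in 7 of the 8 the arrays of the cell types overlapped. HOXB3 was at 4.89 and 4.90 in the fibroblasts and 4.72 to 5.10 in the colonies, with nothing to separate them.

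The HOXD cluster includes genes of the outer limb. At the probe sets used for the counts, HOXD9, HOXD10, HOXD11, HOXD12 and HOXD13 stayed between 2.86 and 4.18 on all 8 arrays, with changes from -0.13 to 0.09 and 95% intervals that all lay within -0.28 and 0.30. None was called. A second HOXD9 probe set lay outside these limits, at 3.59 and 3.96 in the fibroblasts against 3.33 to 3.47 in the colonies, with a change of -0.40 (95% interval -0.63 to -0.17, limma, adjusted p = 0.016) that is under the fold threshold. HOXD4 (change -0.21, limma, adjusted p = 0.16) was not called either. HOXD1 had higher values in the iPSCs, at 3.46 to 3.64 against 3.16 and 3.12, with a change of 0.40 (standard error 0.08, limma, adjusted p = 0.0035), which is under the fold threshold. A second HOXD1 probe set had a change of 0.05 (adjusted p = 0.76). HOXA2 was at 3.13 and 2.99 against 2.94 to 3.33. Values this low lie around or below the arrays' median log2 value of 3.74 to 3.82 and do not show that a gene was off in both cell types. How well the human probes match orangutan transcripts was not tested.

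**Figure D2:**
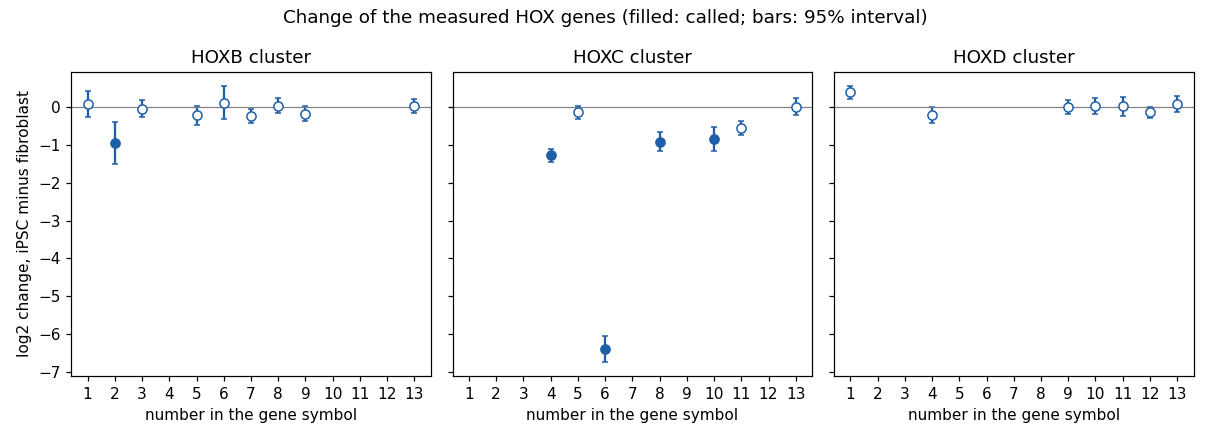
Log2 change, iPSC minus fibroblast (vertical axis), of the measured HOXB, HOXC and HOXD genes against the number in the gene symbol (horizontal axis), with 1 panel per cluster. Points are the limma estimates, bars their 95% intervals, and filled points were called. HOXC6 stands at -6.40, HOXC4, HOXC8 and HOXC10 between -1.27 and -0.83, and the HOXD points lie near 0.

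The HOX partners split by family. MEIS1, a cofactor of the upper limb segment and of blood stem cells, was at 6.75 and 6.28 in the fibroblasts of KB10460 and KB10973 and at 2.91 to 3.25 (median 3.07) in the colonies. MEIS2, its close paralog, was at 5.16 and 4.94 against 3.35 to 4.11 (median 3.48). Both genes were lower in every colony than in either fibroblast culture. The log2 change was -3.42 for MEIS1 (standard error 0.14, 10.7-fold, limma, adjusted p = 2e-07) and -1.48 for MEIS2 (standard error 0.18, limma, adjusted p = 0.00024). The highest MEIS2 value among the colonies was that of KB10460 colony 2, while the other 5 lay between 3.35 and 3.53.

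The PBX genes moved the other way. PBX2 was at 6.93 and 6.65 in the fibroblasts and at 7.66 to 8.02 (median 7.91) in the colonies, a change of 1.10 (standard error 0.11, 2.14-fold, limma, adjusted p = 7.9e-05). PBX3 was at 5.80 and 5.88 against 6.12 to 7.01 (median 6.57), a change of 0.72 (standard error 0.19, limma, adjusted p = 0.020). The colonies were spread more widely for PBX3. When either fibroblast array was left out its change stayed close to this, at 0.68 without KB10460 and 0.76 without KB10973, but the call ended (adjusted p = 0.12 and 0.068). PBX2 was the 1 gene whose probe sets gave different calls. A second PBX2 probe set rose too (0.75, adjusted p = 0.00072), while its other 2 had changes of -0.28 and -0.12 (adjusted p = 0.37 for both) at levels of 3.44 to 4.59. With PBX2 taken as the mean of its probe sets the change was 0.36 (adjusted p = 0.010) and it was no longer called.

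SHOX2 fell at all of its probe sets. At the one used for the counts it was at 7.12 in the KB10460 fibroblasts, 7.48 in the KB10973 fibroblasts and 2.85 to 3.43 (median 3.30) in the colonies. The change was -4.06 (standard error 0.15, 16.7-fold, limma, adjusted p = 1.3e-07). Its other 2 probe sets were at 4.01 to 4.55 in the fibroblasts and had changes of -0.68 (adjusted p = 0.00013) and -0.67 (adjusted p = 0.0044), so the sign was shared and the size was not. With the mean of the SHOX2 probe sets the change was -1.80. PITX1 and PITX3, of the hindlimb and of the eye and midbrain, were not called. PITX1 was at 3.50 and 3.45 against 3.28 to 3.56 (change -0.09, 95% interval -0.31 to 0.12).

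Of the 9 T-box genes, TBX3 was lower in the iPSCs and the other 8 were not called. TBX3, a repressor of the limb margins that is also known from pluripotent cells, was at 8.86 in the KB10460 fibroblasts and 8.23 in the KB10973 fibroblasts. KB10460 colonies 1, 2 and 3 had TBX3 values of 3.63, 5.27 and 4.99, and KB10973 colonies 1, 2 and 3 had 3.76, 3.86 and 3.86. All colonies were thus far below the fibroblasts, but 2 of the KB10460 colonies stood above the other 4. The change was -4.32 (standard error 0.45, 20.0-fold, limma, adjusted p = 9.3e-05), with the widest standard error of the 40 genes. The mean of the fibroblast markers was 5.50 and 5.30 in KB10460 colonies 2 and 3, within the range of the other 4 colonies (5.28 to 5.76). That mean includes THY1, and its single markers differed. In KB10460 colonies 1, 2 and 3, COL1A2 was at 6.65, 7.91 and 7.33 and VIM at 8.97, 9.67 and 9.17. LUM and PDGFRB were also lowest in colony 1 of this donor. COL1A1, COL3A1 and THY1 were highest in it, and DCN, FAP and FBLN1 were neither. The part of fibroblast-like cells in the TBX3 values was not tested.

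The T-box genes that set limb type stayed low. TBX5, the forelimb gene, was at 3.77 and 3.59 in the fibroblasts and 3.26 to 3.44 in the colonies. Its arrays did not overlap, but its change of -0.33 (limma, adjusted p = 0.017) is under the fold threshold, and its second probe set had a change of -0.05 (adjusted p = 0.82). TBX4, its hindlimb counterpart, was at 3.96 and 3.99 against 3.91 to 4.31 and was not called (change 0.16, 95% interval -0.10 to 0.43). TBX2, a close relative of TBX3, was not called at any of its 4 probe sets. One of these, noted after its values were seen, was at 4.05 and 4.41 against 3.54 to 3.77, with a change of -0.58 (adjusted p = 0.0044) that also stopped short of the threshold. TBX1, TBX6, TBX10, TBX19 and TBX21 had changes between -0.31 and -0.03. TBX6, a gene of the paraxial mesoderm, was at 4.61 in the KB10460 fibroblasts and 3.91 in the KB10973 fibroblasts, with the colonies at 3.85 to 4.13 between or below them. Without the KB10973 fibroblast array TBX6 was called lower (change -0.59, adjusted p = 0.0057), as was HOXC11 (-0.64, adjusted p = 0.0016).

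**Figure D3:**
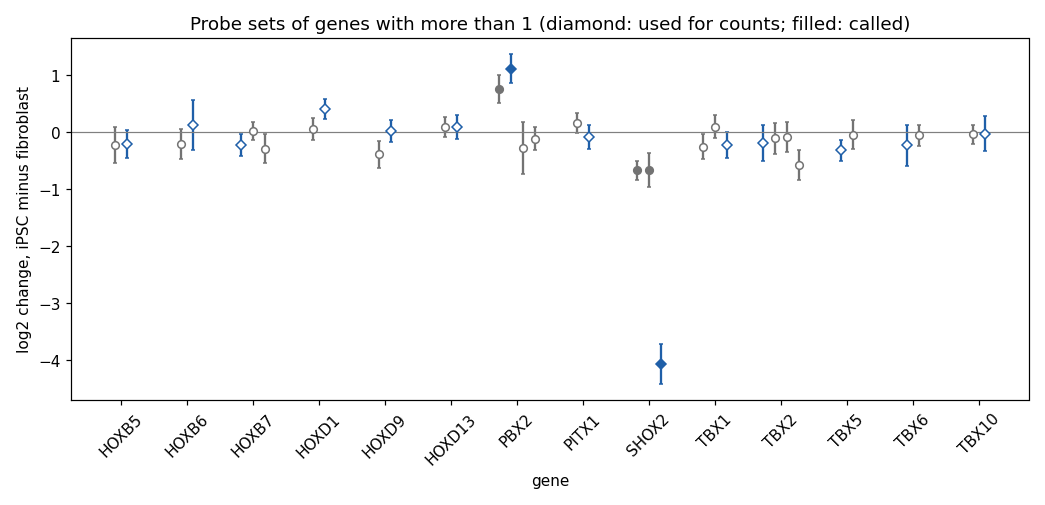
Log2 change, iPSC minus fibroblast (vertical axis), at each probe set of the 14 genes with more than 1 (horizontal axis). Diamonds are the probe sets used for the counts, circles the others, bars 95% intervals, and filled marks were called. All SHOX2 marks are filled and below 0 but differ in size, and the PBX2 marks fall on both sides of 0.

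Of the 29 genes not called, 26 missed the threshold on adjusted p, with changes from -0.31 to 0.16 and standard errors of 0.07 to 0.19. The other 3, HOXC11, TBX5 and HOXD1, passed on adjusted p and missed on the fold. The 29 genes stayed between 2.86 and 5.10 on every array, and in 20 of them the arrays of the cell types overlapped. The share with overlap over all genes was not counted. Of the 14 genes with several probe sets, 13 gave the same call at each. Among these 13, only SHOX2 was called, and the others were uncalled at every probe set. The share with the same call over all genes was not counted.

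The donors were then compared. Between the 3 KB10973 and the 3 KB10460 colonies, none of the 40 genes was called by limma (lowest adjusted p = 0.53), where 0.142% of all genes were, and none had an unadjusted p under 0.05, against 11.8% of all genes. TBX3 had the largest difference, KB10973 minus KB10460, at -0.80 (standard error 0.37, 95% interval -1.68 to 0.07, adjusted p = 0.53), and the other 39 genes differed by at most 0.34. The TBX3 value of KB10460 colony 1 lay with those of KB10973, and of the 6 fits that each left out 1 colony, the one without it called TBX3 (-1.30, standard error 0.11, limma, adjusted p = 0.0069). The same omission raised the calls over all probe sets from 20 to 152, and it removes the colony that went against the difference, so this call is not evidence that the donors differ.

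The change from fibroblast to iPSC ran in the same direction in both animals for 28 of the 40 genes, among them all 11 called genes. For the called genes this follows from the lack of overlap between their arrays and is no separate support. The share of all genes with a common direction was not counted, so the count does not show that the donors agree. HOXC6 changed by -6.54 in KB10460 and -6.26 in KB10973, TBX3 by -4.23 and -4.41, SHOX2 by -3.80 and -4.33, and MEIS1 by -3.68 and -3.16. These pairs are close beside the size of the changes. HOXB2 changed by -1.39 in KB10460 and -0.52 in KB10973, and HOXC10 by -1.10 and -0.57. Tested as a difference of the changes, none of the 40 genes was called (lowest adjusted p = 0.096, for TBX6), where 3.42% of all genes were. An unadjusted p under 0.05 was found for 5 of the 40 (HOXB2, HOXC10, MEIS1, TBX6 and TBX21), or 12.5%, against 17.3% of all genes. Each animal has 1 fibroblast array, which this test assumes to vary like a colony, and intervals such as 0.16 to 1.57 for HOXB2 are wide.

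**Figure D4:**
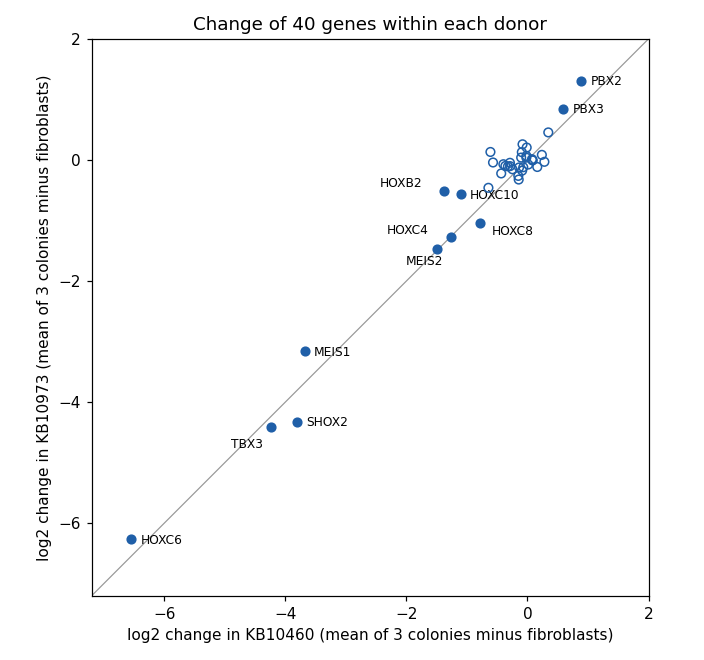
Log2 change within KB10460 (horizontal axis) against that within KB10973 (vertical axis), each the mean of 3 colonies minus the donor's own fibroblast array. Each point is 1 of the 40 genes, filled where called over both donors, and the line marks equal changes. HOXC6, TBX3, SHOX2 and MEIS1 lie near the line at large negative values, while HOXB2 and HOXC10 changed more in KB10460.

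Other patterning genes outside the symbol rule were counted in the same fit. Of 26 measured genes of limb and skin mesenchyme patterning, 5 were lower (19.2%, against 11.5% of all genes), 2 higher (7.69% against 15.2%) and 19 not called, with a median change of -0.05. The BMP antagonist gene GREM1 fell by 7.22 on the log2 scale (fibroblasts 10.66 and 10.08), the ligand gene WNT5A by 6.06 (10.78 and 11.02) and the mesenchymal factor gene TWIST1 by 2.64 (8.50 and 8.46). The Hedgehog receptor gene PTCH1 rose by 3.29, and SALL1, a zinc finger gene, by 1.15. Of 6 other TALE homeobox genes, TGIF2, a repressor of TGF-beta responses, was higher (2.23) and 5 were not called.

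Of 3 T-box genes without a number in their symbol, TBXT, the Brachyury gene of early mesoderm, was higher in the iPSCs (change 1.63, standard error 0.52, limma, adjusted p = 0.042). It was at 4.62 and 4.49 in the fibroblasts, 4.74 in KB10460 colony 1 and 6.02 to 7.34 in the other 5 colonies. KB10460 colony 1 thus had the lowest TBX3 and the lowest TBXT value of the colonies. Of 21 measured regulators of the HOX clusters, 6 were higher (28.6%, against 15.2% of all genes), 2 were lower (9.52% against 11.5%) and 13 were not called. The retinoic acid hydroxylase gene CYP26A1 (5.05) and the Polycomb group genes PHC1 (5.04) and JARID2 (4.90) had the largest rises. PHC2 (-1.91) and CBX7 (-0.65), also of Polycomb complexes, were lower.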

How the data were processed

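Gene expression was measured in 8 cultures (2 fibroblast, 6 iPSC) on one-colour Affymetrix human GeneChips. The authors normalized the arrays with RMA in WebArray and deposited log2 values. RMA equalizes the arrays' distributions, so a change shared by most transcripts would not be seen. No column lacked a sample. The number of arrays limits the precision.

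Genes were named from the platform annotation, in which 19070 probe sets have a single symbol, 1043 have more than 1 and 2164 have none. Genes with several probe sets were counted at the one with the highest mean. The comparisons used limma 3.58.1 in R 4.3.3 (lmFit, eBayes) without a block: cell types over 8 arrays, donors over 6 iPSC arrays, and the difference of the changes over 4 groups. Adjustment ran over all probe sets. Values per array are given for called genes and those with a mean log2 value above 6 in either cell type. The members and lists were chosen with earlier results of these data known. The script was tested on simulated data.

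Each animal gave both cell types, which pairs them by donor. Across probe sets the fibroblast and iPSC donor differences had a correlation of 0.02.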

Additional observations from a re-analysis of the deposited data

Results flagged for a closer look

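In 4 of the 40 genes, 1 of the 6 colonies lay apart from the other 5 by Dixon's criterion, which chance meets in about 1 in 20 groups. These were MEIS2 in KB10460 colony 2 (4.11, others 3.35 to 3.53), SHOX2 in KB10973 colony 2 (2.85, others 3.23 to 3.43), and HOXB3 and PITX3 in KB10973 colony 1 (5.10, others 4.72 to 4.86, and 4.11, others 3.69 to 3.80).

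In 3 genes every colony of one donor moved one way from its fibroblasts and every colony of the other donor the opposite way. The difference of the changes, KB10973 minus KB10460, was 0.74 for TBX6 (limma, adjusted p = 0.096), 0.22 for HOXC13 (adjusted p = 0.67) and -0.28 for HOXD11 (adjusted p = 0.65), none of them called.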

How the results depend on the processing

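The 9 lower and 2 higher genes were the same genes with the donor as replicate block, with median centring (which moved changes by 0.04), with trended robust moderation, without any 1 colony and with KB10973 colonies 1 and 2 averaged, which was added after seeing the data. Without 1 fibroblast array or colony, 7 to 11 were lower and 1 to 2 higher. A filter on log2 values under 5 left 7 of the 40 genes, 5 lower and 2 higher, where 4103 of the 7457 probe sets left were called. The 5 lower genes had iPSC means of 3.09 to 4.23 and passed only through the fibroblasts, so the filter fixed their direction. Without probe sets whose identifiers mark shared probes, 31 genes were left, with 5 lower and 1 higher, and PBX2 turned to -0.28 (adjusted p = 0.40). The higher count was 1 with array weights, a 2-fold threshold, Benjamini-Yekutieli adjustment and the mean of the probe sets. Averaging the colonies of each donor, which leaves fewer samples, kept the changes of HOXB2 (-0.95) and HOXC10 (-0.83) but ended their calls (limma, adjusted p = 0.19 and 0.077). HOXC8, with a similar change (-0.91), stayed called in that fit (adjusted p = 0.015). The fibroblast arrays differed, KB10973 minus KB10460, by -1.01 for HOXB2, -0.56 for HOXC10 and 0.22 for HOXC8. HOXC6, TBX3, SHOX2, MEIS1, MEIS2 and HOXC4 stayed called in every setting that measured them. All probe sets of HOXC6, TBX3, SHOX2 and MEIS2 have identifiers that mark shared probes. These genes were therefore not measured in the setting that left such probe sets out. HOXC4 was not measured after the filter on low values. For the donor comparison the count was 0 with the colony number as replicate block, which pairs nothing here (r = -0.05, -0.01 and 0.06 for numbers 1, 2 and 3), and 0 to 1 without 1 colony. No gene was called for the difference of the changes in any setting.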

Other observations

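Some probe sets related to these genes fall outside the symbol rule. The 3 probe sets annotated to HOXD3, HOXD4 and a noncoding locus together had values of 2.75 to 3.46 on all arrays, with changes of -0.30 to 0.05, and none was called. The MEIS pseudogene MEIS3P1 (-0.31), the PITX1 antisense gene PITX1-AS1 (-0.05) and PBX3-DT, a transcript that starts beside PBX3 (-0.03), were not called.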
